A study of Mus musculus with 20 samples.

Results

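The comparison described here set erythroblasts of double-knockout (DKO) mice against those of double wild-type (DWT) mice at stage II+III, which the labels define as basophilic and polychromatic erythroblasts. Its members were the 4 arrays titled DKO-II+III (2 arrays) and DWT-II+III (2 arrays) of the 20 arrays in the series, and all 19572 probe sets with 1 gene symbol were compared. The DKO mice lacked both mDia1 and miR-146a, both genotypes were on the C57BL/6 background, and all mice were 1 year old and labelled healthy. Both DKO arrays came from females, whereas DWT replicate 1 came from a male and DWT replicate 2 from a female. Genotype and sex are therefore partly confounded. The series also holds the same genotypes at stage I (proerythroblasts) and stage IV (orthochromatic erythroblasts), and erythropoietin cultures of wild-type marrow cells that were not used for the comparison. The labels state neither how the stages were isolated nor in which cells the genes were deleted, and each genotype had 2 mice with no technical replicates.

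Erythroblasts mature through a fixed series of stages in which cells shrink, divide a last few times, fill with haemoglobin, build the spectrin-based membrane skeleton of the red cell and lose organelles and nucleus. mDia1, the product of Diaph1, is a formin that nucleates and elongates unbranched actin filaments. miR-146a is a microRNA induced by NF-kB that restrains innate immune signalling, with the adaptors Traf6 and Irak1 as its best known targets. Loss of both has been studied as a mouse model of the anaemia and inflammation of myelodysplastic syndromes with a deletion in the long arm of a human chromosome that carries both genes. The comparison asked which transcripts differed in DKO erythroblasts at the middle stages of maturation.

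The deleted microRNA and its closest relative are shown because they have the same seed, so that the targets of one are also predicted targets of the other. In the RefSeq annotation of GRCm38.p6 mature miR-146a lies at chr11:43374435-43374456 on the minus strand and mature miR-146b at chr19:46342790-46342811 on the plus strand. Both have 22 bases and differ at 2 of them, and capitals mark the seed (bases 2 to 8).
mmu-miR-146a-5p: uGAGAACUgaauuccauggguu
mmu-miR-146b-5p: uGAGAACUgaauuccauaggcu
Neither microRNA was measured among the named probe sets of these arrays, so the labelled loss of miR-146a was not checked.

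Values are log2 signals, and a difference of 1 is a change of signal by a factor of 2. Diaph1 checked the labels first. Diaph1 read 6.999 and 7.59 in the DKO arrays, against 10.41 and 11.07 in the DWT arrays. Both DKO values lay near background, and the groups did not overlap. The log2 difference was -3.45 ± 0.43 (standard error, n = 2 arrays a group, adjusted p = 0.0093 in limma), or at least 9.27-fold lower against the background level. Whether the probe set lies in the deleted stretch of the gene is not known. Its call ended without DWT replicate 1 (-3.78, adjusted p = 0.072) and without DWT replicate 2 (-3.12, adjusted p = 0.060). Of 13 measured formin genes no other passed; the mDia2 gene Diaph3, which acts in erythroblast cytokinesis, differed by -1.12 and the mDia3 gene Diaph2 by 1.43. The Y-linked gene Uty read 4.19 and 4.53 in the DKO arrays, against 10.44 in the male and 3.99 in the female DWT array, as the labelled sexes require.

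Of the 19572 named probe sets 121 passed at an adjusted p under 0.05 (0.618%), 43 of them higher in DKO (0.22%) and 78 lower in DKO (0.399%). These shares are the background for all counts of list members that passed. An unadjusted p under 0.05 was found for 1816, where 978.6 would be reached with no effect. The median difference over all named probe sets was 0.01. In these bulk samples fewer cells of a type and less RNA per cell cannot be told apart, and the same holds for increases. In all 121 the DKO and DWT arrays did not overlap, but this was also so for 23% of all probe sets with DKO above and 21.2% with DKO below. Of the 43 higher genes 41 differed by over 2 on the log2 scale, and of the 78 lower genes 74 did. The higher genes were near background in DWT in 21 cases, and 14 of the lower ones were near background in DKO. Of all named probe sets 5.07% were higher and 5.55% lower in DKO by over 1 on the log2 scale. Another 5 (Fam20a, Upp1, Olfr60, Zbtb10 and Klra10) were near background in both genotypes, so their differences are uncertain. The 4 arrays had 39.2% to 43.0% of named probe sets above background.

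The number of calls depended on single arrays. Without DWT replicate 1, the male, 5 genes passed, of which 3 were among the 121 (Fcna, Il1f9 and Slfn4). Without DWT replicate 2 the count was 54, without DKO replicate 1 it was 146 and without DKO replicate 2 it was 49. All 121 genes kept their direction in these 4 fits, which was fixed in advance because their DKO and DWT arrays did not overlap. With sex as a term in the fit 15 of the 121 passed, and the median ratio of the difference with the term to that without it was 0.955. The only male in vivo arrays were DWT replicate 1 of each stage. The term therefore cannot separate sex from other differences between the DWT replicates. The DKO arrays differed more from each other than the DWT arrays did. Between the DKO replicates 11.9% of named probe sets differed by over 1 on the log2 scale (r = 0.970), and between the DWT replicates 5.65% did (r = 0.986). DKO replicate 1 correlated at 0.983 with both stage I DWT arrays, against 0.963 and 0.976 with the DWT arrays of its own stage. DKO replicate 2 correlated at 0.961 and 0.962 with the stage I DWT arrays, against 0.946 and 0.955 with those of stage II+III.

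**Figure D1:**
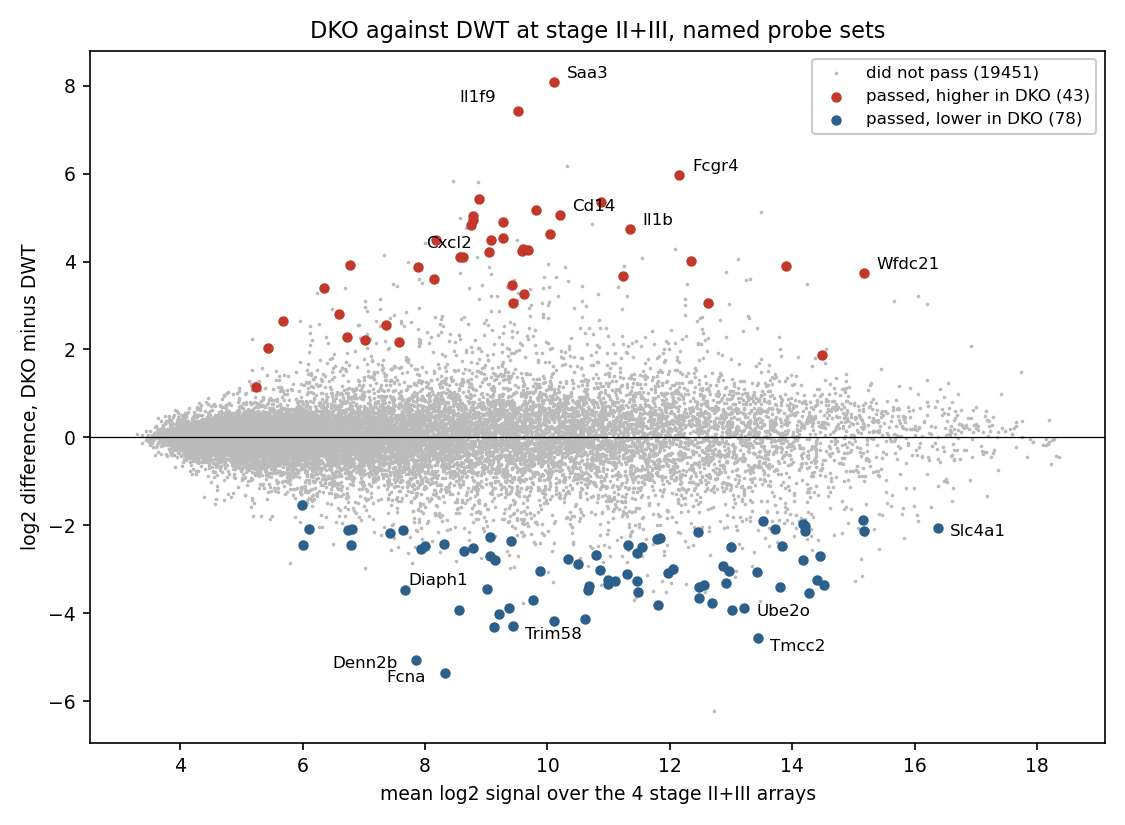
Log2 difference (DKO minus DWT, y axis) against mean log2 signal over the 4 stage II+III arrays (x axis) for each named probe set. The 43 red points passed higher in DKO, the 78 blue points passed lower in DKO, and the grey points did not pass. Saa3 and Il1f9 stand highest, and Fcna and Denn2b lowest among the points that passed.

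Of 20 measured inflammatory cytokines and chemokines 3 passed higher in DKO (Il1b, Cxcl2 and Il1rn) and 0 lower, and the list median was 0.05. Of all named probe sets 0.22% passed higher. Il1f9, which is not on that list, also passed. Il1f9 encodes interleukin 36 gamma, an inflammatory cytokine of the interleukin 1 family. It read 12.997 and 13.47 in the DKO arrays, against 6.13 and 5.46 in the DWT arrays. The DWT values were near background and far below both DKO values. Il1f9 had the smallest adjusted p of all genes (log2 difference 7.43 ± 0.45, adjusted p = 1.42e-04 in limma), at least 55.6-fold higher. Il1b, the gene of interleukin 1 beta, read 13.29 and 14.15 in DKO and 8.89 and 9.07 in DWT. The DWT arrays lay close together and far below both DKO arrays (log2 difference 4.74 ± 0.49, adjusted p = 0.0049). Cxcl2, a chemokine that attracts neutrophils through Cxcr2, read 10.81 and 11.49 in DKO and 6.75 and 7.14 in DWT, again without overlap (4.21 ± 0.40, adjusted p = 0.0034, at least 13.1-fold higher).

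Genes of 2 inhibitors of interleukin 1 also passed. Il1rn, the receptor antagonist, read 10.95 and 11.71 in DKO and 6.47 and 7.19 in DWT (4.50 ± 0.68, adjusted p = 0.017, at least 3.90 on the log2 scale). Il1r2, a decoy receptor found on neutrophils, read 10.01 and 9.91 in DKO and 6.41 and 6.29 in DWT. Both DWT values of Il1r2 were near background (3.61 ± 0.34, adjusted p = 0.0034, at least 2.52 on the log2 scale). The cytokines Tnf (2.16, adjusted p = 0.23) and Il6 (-1.44, adjusted p = 0.56) did not pass. Nlrp3, the gene of an inflammasome sensor, differed by -0.51 and did not pass either. The 3 calls fell to 0 without DWT replicate 1, where Il1b had an adjusted p of 0.072 and Cxcl2 one of 0.064, and to 2 without DWT replicate 2 and without DKO replicate 2.

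Of 18 measured pattern recognition and Fc receptor genes, which sense microbes and immune complexes, 4 passed higher and 0 lower. Among all named probe sets 0.22% passed higher. The list median was 2.02, against 0.01 over all named probe sets. Both DKO arrays lay above both DWT arrays in 17 of 18, against 23% of all named probe sets. Fcgr4, an activating receptor for IgG, read 13.65 and 16.62 in DKO and 9.13 and 9.23 in DWT. The DKO arrays differed widely from each other, and both were far above DWT (5.96 ± 0.94, adjusted p = 0.020). Cd14, a co-receptor for lipopolysaccharide, read 12.35 and 13.12 in DKO and 6.78 and 8.57 in DWT (5.07 ± 0.74, adjusted p = 0.014). The C-type lectins Clec4d (4.29) and Clec4e (3.68), which bind fungal and mycobacterial glycolipids, also rose. Toll-like receptors differed by 0.35 for Tlr9 to 2.58 for Tlr1, and the adaptor gene Myd88 by 1.14, with none passing. Without DWT replicate 1 none of the 18 passed, without DKO replicate 2 only 1 (Clec4d), and without DWT replicate 2 there were 3.

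Acute phase genes gave the largest single difference. Saa3, a serum amyloid A protein made by macrophages and other cells outside the liver in inflammation, read 12.37 and 15.93 in DKO and 5.93 and 6.22 in DWT. The DKO replicates were far apart, and both DWT values were near background (8.08 ± 1.23, adjusted p = 0.017). The bound against background was 6.72 on the log2 scale, or 105-fold. Orm1, an orosomucoid, rose by 4.11 ± 0.57 (adjusted p = 0.014, at least 3.20). The complement factor gene Cfb rose by 3.92 ± 0.74 (adjusted p = 0.049, at least 1.30), with 7.34 in DKO replicate 1, itself near background, and 10.13 in DKO replicate 2. Of 13 measured acute phase genes 3 passed higher, against 0.22% of all named probe sets, and 0 lower. The list median was 2.23, or 1.30 with genes near background in 1 genotype set at their bounds. Saa1 (0.22), Saa2 (-0.29) and Hpx (0.13), which are known from liver, were near background in both genotypes and did not pass. The 3 calls fell to 0 without DKO replicate 2 and without DWT replicate 1, and to 2 without DWT replicate 2.

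The DKO arrays carried more neutrophil signal than the DWT arrays. All 18 measured neutrophil genes had both DKO arrays above both DWT arrays, against 23% of all named probe sets. Of the 18, 4 passed higher, against 0.22% of all named probe sets. The mean log2 signal of the list was 14.32 and 14.36 in DKO, against 10.20 and 11.85 in DWT. It was 14.96 and 15.26 in the stage I DWT arrays. Wfdc21, a granule protein gene, read 17.16 and 16.93 in DKO and 12.43 and 14.17 in DWT (3.74 ± 0.54, adjusted p = 0.014). Mmp9, the gelatinase of tertiary granules, read 11.33 and 11.17 in DKO and 5.56 and 7.06 in DWT (4.94 ± 0.72, adjusted p = 0.014, at least 3.81). The DKO replicates agreed closely in both genes and the DWT replicates did not. Stfa2l1, a stefin A protease inhibitor (at least 3.88, measured 5.04), and Il1r2 were the other 2 that passed. The alarmin genes S100a8 and S100a9 differed by 3.03 (adjusted p = 0.11) and 3.10 (adjusted p = 0.068). S100a8 read 17.71 in both DKO arrays and 14.13 and 15.24 in the DWT arrays. The list median was 3.16, and the 18 differences ran from 1.48 (Ngp) to 5.13 (Retnlg). Without DWT replicate 1 none of the 18 passed, with a median of 2.38. Without DWT replicate 2 there were 6, without DKO replicate 1 there were 2, without DKO replicate 2 there was 1, and without the stage I array DKO-I replicate 2, which stands apart from the other in vivo arrays (highest r 0.909; left out after the data were seen), there were 12. The part of the neutrophil signal in the inflammatory genes above was not tested.

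**Figure D2:**
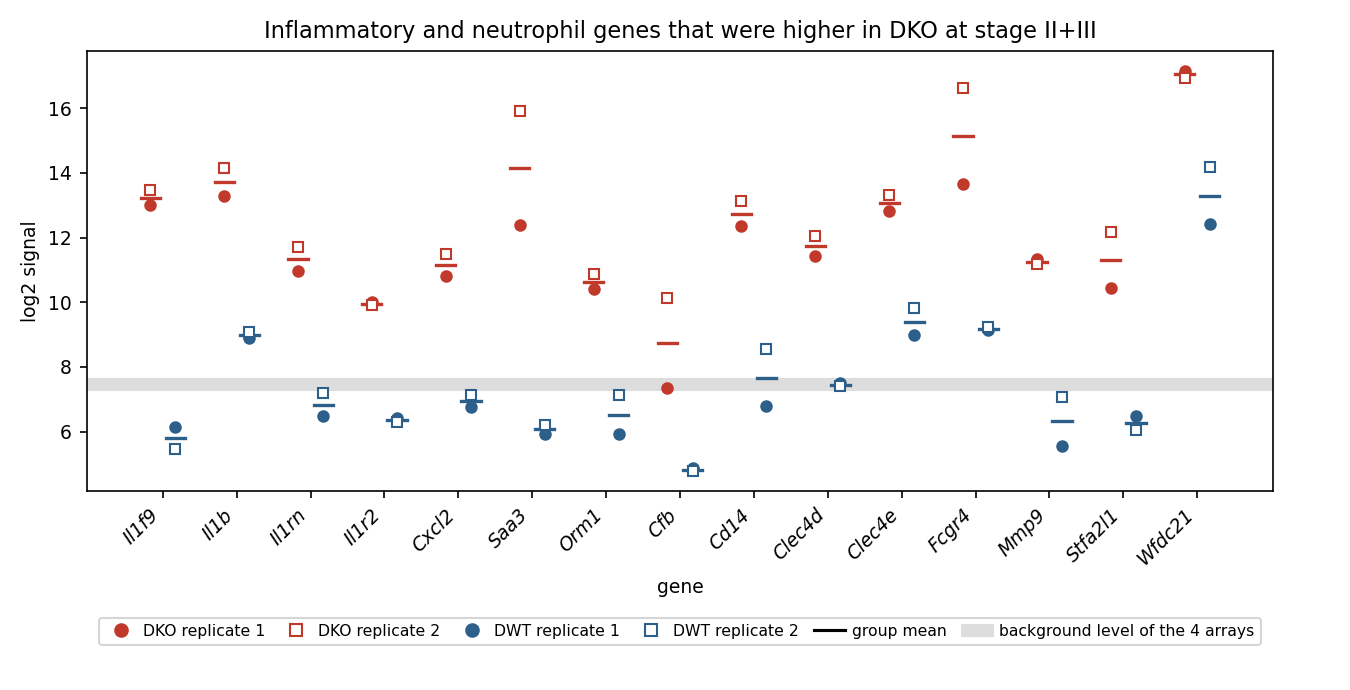
Log2 signal of 15 inflammatory, receptor, acute phase and neutrophil genes that passed higher in DKO, per array, with DKO in red left of DWT in blue. Circles are replicate 1, squares replicate 2, short lines group means, and the grey band is the range of the background levels of the 4 arrays. Both DKO arrays lie above both DWT arrays in each gene, and Saa3, Fcgr4 and Cfb show the widest gaps between the DKO replicates.

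Other myeloid genes were among the 15 largest increases. Ms4a6d, a macrophage membrane protein gene, read 12.17 and 14.96 in DKO and 7.83 and 8.57 in DWT (5.36 ± 0.95, adjusted p = 0.035). F11r, Smpdl3b and Cstdc4 were near background in both DWT arrays. F11r, which encodes a junctional adhesion molecule, rose by at least 4.17 (measured 5.43), and Smpdl3b, a phosphodiesterase that restrains Toll-like receptor signalling in mouse macrophages, by at least 4.30 (measured 4.90). Cstdc4, a stefin A relative, rose by at least 3.74 (measured 4.83). Dpep2, a membrane dipeptidase, rose by 5.17 (adjusted p = 0.050), Dusp16, a phosphatase of the kinase JNK, by 4.63 and Cd300ld, a myeloid immunoglobulin-like receptor, by 4.54. DKO replicate 2 read well above DKO replicate 1 in F11r (13.14 against 10.07), Smpdl3b (12.97 against 10.49), Dpep2 (13.91 against 10.87) and Dusp16 (13.49 against 11.21). Without DKO replicate 2 their measured differences were 3.90, 3.665, 3.65 and 3.49. A few genes outside the naming rule that passed higher were singled out after their values were seen. They are Acod1, which makes itaconate in activated macrophages (at least 2.995), Trem1, a receptor that amplifies inflammation (4.24), Slfn4 (at least 3.24), the peptidoglycan binding protein gene Pglyrp1 (3.90), Lrg1 (at least 2.38) and Chil1 (3.26). Mrgpra2a (3.46) and Mrgpra2b (4.02) also passed and are close copies whose probes may share signal.

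Of 15 measured monocyte and macrophage genes 1 passed higher (Ms4a6d), with a median of 0.95, and Csf1r (1.35) and Lyz2 (1.12) did not pass. The monocyte median was 0.31 without DWT replicate 1, and the call of Ms4a6d ended without either DWT array and without DKO replicate 2 (adjusted p 0.125 to 0.372). Markers of the macrophages that live in the marrow and nurse erythroblasts had 1 of 15 lower and 0 higher, with a median of -0.73. Of all named probe sets 0.399% passed lower. The median was -0.17 without DKO replicate 1, where 1 also passed higher, and -1.92 without DKO replicate 2. The gene that passed was Fcna, which encodes the macrophage lectin ficolin A. Fcna read 5.45 and 5.85 in DKO, near background, and 11.59 and 10.44 in DWT. It was the largest decrease of all genes that passed (-5.36 ± 0.49, adjusted p = 0.0034, at least 11.1-fold lower), and its call held without each of the 4 arrays in turn. The iron exporter gene Slc40a1 (-2.50, adjusted p = 0.0505), the haem oxygenase gene Hmox1 (-2.33), Mrc1 (-2.16) and Vcam1 (-1.92, near background in both DKO arrays) did not pass. Both DKO arrays lay below both DWT arrays in 7 of the 15 genes, these among them, against 21.2% of all named probe sets. The complement genes C1qa, C1qb and C1qc were higher in DKO replicate 2 than in the other 3 arrays, with C1qa at 11.25 and 14.94 in DKO and 12.65 and 11.10 in DWT.

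Of 19 measured genes of the red cell membrane 6 passed lower, against 0.399% of all named probe sets, and 0 higher, with a median of -2.25. In 15 of them both DKO arrays lay below both DWT arrays, against 21.2% of all named probe sets. Slc4a1, the anion exchanger that anchors the membrane skeleton, read 15.17 and 15.52 in DKO and 17.52 and 17.30 in DWT. The replicates of each genotype lay close together and the genotypes apart (-2.06 ± 0.32, adjusted p = 0.020). Sptb, the spectrin beta chain, read 9.30 and 10.52 in DKO and 14.27 and 13.16 in DWT (-3.80 ± 0.57, adjusted p = 0.016). Tmod1, tropomodulin, which caps the actin protofilaments of the skeleton, read 11.62 and 12.58 in DKO and 15.91 and 15.08 in DWT (-3.40 ± 0.43, adjusted p = 0.011). Both skeletal genes were well above background in every array. Dmtn, dematin, fell by 3.06, Ermap, the Scianna blood group protein, by 2.92, and Add2, beta adducin, by 2.68. The protein 4.2 gene Epb42 (-2.76), the ankyrin gene Ank1 (-2.57), the blood group genes Kel (-2.30) and Rhd (-2.25), and the water channel gene Aqp1 (-1.76) did not pass. The glucose transporter gene Slc2a1 was the exception in direction, with 14.52 and 15.48 in DKO and 12.71 and 13.64 in DWT (1.82, adjusted p = 0.14). Slc4a1 did not pass without any 1 of the 4 arrays (adjusted p 0.0763 to 0.271). The number of members that passed lower was 0 without DWT replicate 1, 4 without DWT replicate 2, 3 without DKO replicate 1, 4 without DKO replicate 2 and 12 without DKO-I replicate 2, where 1 also passed higher.

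The terminal maturation list held genes of late erythroid maturation, ubiquitin pathway genes among them. Of its 21 measured members 8 passed lower, against 0.399% of all named probe sets, and 0 higher, with a median of -2.24. In 19 both DKO arrays lay below both DWT arrays, against 21.2% of all named probe sets. Trim58, a ubiquitin ligase that degrades dynein in mouse erythroblasts, read 6.61 and 7.96 in DKO and 12.15 and 11.01 in DWT (-4.29 ± 0.62, adjusted p = 0.014). Ube2o, which remodels the proteome of mouse reticulocytes, read 10.34 and 12.23 in DKO and 15.21 and 15.10 in DWT (-3.88 ± 0.53, adjusted p = 0.014). Ube2h, a ubiquitin-conjugating enzyme, read 10.31 and 11.31 in DKO and 14.92 and 14.22 in DWT (-3.76 ± 0.50, adjusted p = 0.014). In each of these ubiquitin pathway genes DKO replicate 1 was the lowest array. Trim10, an erythroid RING finger gene, read 11.99 and 13.02 in DKO and 16.29 and 15.80 in DWT (-3.54 ± 0.39, adjusted p = 0.0057). Ranbp10, a tubulin-binding protein, fell by 3.33, the poly(A) polymerase gene Tent5c by 3.27, Bpgm, which makes bisphosphoglycerate, by 3.04, and the ubiquitin ligase gene Rnf123 also passed (-2.998). The nuclear exporter gene Xpo7 (-3.15, adjusted p = 0.072) and the mitophagy receptor gene Bnip3l (-1.55) did not pass. The number that passed lower was 0 without DWT replicate 1, 3 without DWT replicate 2 and without DKO replicate 1, 6 without DKO replicate 2 and 14 without DKO-I replicate 2.

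**Figure D3:**
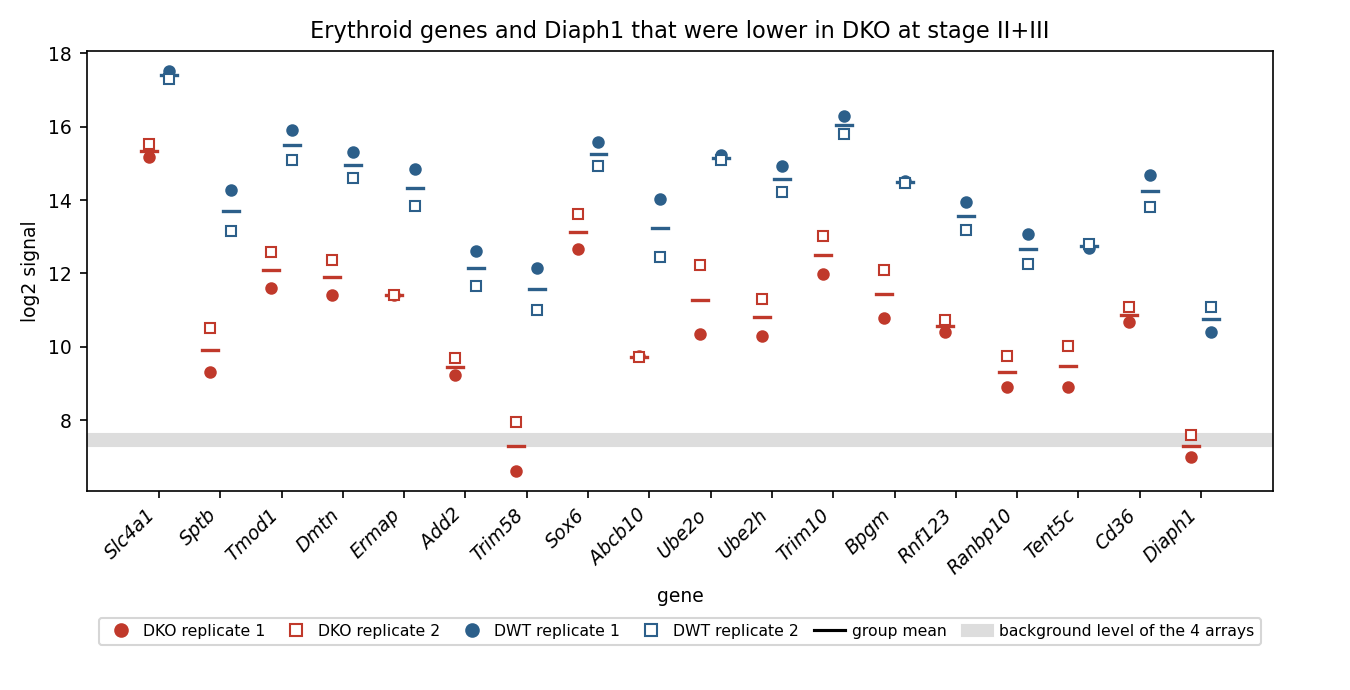
Log2 signal of 17 erythroid genes and Diaph1 that passed lower in DKO, per array, with DKO in red left of DWT in blue. Circles are replicate 1, squares replicate 2, short lines group means, and the grey band is the range of the background levels of the 4 arrays. Both DKO arrays lie below both DWT arrays in each gene, and only Trim58 and Diaph1 reach the background level in a DKO array.

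The other genes among the 15 largest decreases included Denn2b, Tmcc2 (-4.56 ± 0.60), Sowaha (-4.32), Tbcel (-4.19), Ypel4 (-4.12), Fam214b (-4.02) and Snx22. Denn2b and Snx22 were near background in both DKO arrays. Denn2b was measured at -5.05 ± 0.56 (adjusted p = 0.0057), at least 7.20-fold lower, and Snx22 at -3.92, at least 7.91-fold lower. Tmcc2 was well expressed in both genotypes, with 10.77 and 11.55 in DKO and 16.11 and 15.33 in DWT. Slfn14, a ribosome-associated nuclease gene known from platelets and erythroid cells, read 10.90 and 11.22 in DKO and 15.38 and 14.58 in DWT (-3.92 ± 0.59, adjusted p = 0.017). Its DKO values were both low and close together. Myh10, a non-muscle myosin of the cytokinetic ring, read 8.10 and 6.77 in DKO and 11.93 and 10.68 in DWT (-3.87 ± 0.53, adjusted p = 0.014). It was the only 1 of 24 measured actin and cytokinesis partners that passed. Dnajb2, a co-chaperone, fell by 3.70, and the fatty acid receptor gene Cd36, which is carried by immature erythroid cells, by 3.36 (adjusted p = 0.014). The theta globin genes Hbq1a (-3.27) and Hbq1b (-3.31), which lie outside the naming rule, also passed and are near-identical copies that the probes may not separate.

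Of 21 measured regulators 2 passed lower (Trim58, counted above, and Sox6) and 0 higher, with a median of -1.20. Sox6, which supports terminal maturation and globin switching, read 12.66 and 13.62 in DKO and 15.59 and 14.93 in DWT (-2.12 ± 0.39, adjusted p = 0.044). Gata1, the master regulator of the lineage, read 8.28 and 8.91 in DKO and 9.25 and 9.27 in DWT, a small gap without overlap (-0.67, adjusted p = 0.77). Klf1 overlapped between the genotypes, with 11.65 and 13.05 in DKO and 13.96 and 13.04 in DWT (-1.15, adjusted p = 0.55). E2f2 (-2.22), Foxo3 (-2.16, adjusted p = 0.051), Lmo2 (-1.72) and Hemgn (-1.95) did not pass. The 2 calls fell to 0 without DWT replicate 1 and without DKO replicate 1, to 1 without each of the other 2 arrays, and reached 7 without DKO-I replicate 2.

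None of 8 measured haem synthesis enzymes passed, with a median of -1.46. Alas2, the first enzyme of erythroid haem synthesis, read 15.74 and 17.28 in DKO and 17.79 and 17.90 in DWT (-1.33, adjusted p = 0.25). Alad read 12.86 and 14.27 in DKO and 16.01 and 15.56 in DWT (-2.22, adjusted p = 0.056). DKO replicate 1 was the lowest array for both. The median of the haem list was -0.63 without DKO replicate 1 and -2.28 without DKO replicate 2, where 3 passed lower. Of 11 mitochondrial iron and porphyrin transport genes 1 passed, the exporter gene Abcb10, with 9.74 and 9.71 in DKO and 14.04 and 12.44 in DWT (-3.51 ± 0.52, adjusted p = 0.015), and the list median was -1.45. Its call ended without DWT replicate 1 (adjusted p = 0.183), without DKO replicate 1 (0.0527) and without DKO replicate 2 (0.0869). Of 16 cellular iron handling genes none passed, 5 differences were positive and 11 negative, and the median was -0.20. The mitoferrin gene Slc25a37 (-2.30), the transferrin receptor gene Tfrc (-1.35, adjusted p = 0.65) and the erythropoietin receptor gene Epor (-1.97, adjusted p = 0.092) did not pass. The adult globin genes were not among the named probe sets.

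None of 25 measured mitosis genes passed, but all 25 differences were negative, with a median of -1.17. In 20 of them both DKO arrays lay below both DWT arrays, against 21.2% of all named probe sets. Cenpf, which encodes a kinetochore protein, was near background in both DKO arrays and differed by -2.36 (adjusted p = 0.092). None of 25 DNA replication genes passed, with a median of -0.66 and 19 without overlap in the same direction (21.2% of all named probe sets). Of 44 measured cytosolic ribosomal protein genes none passed, the median was 0.24 and 42 differences were positive. Of all 19572 named probe sets 10014 differences were positive. The list mean was 16.53 and 16.03 in DKO and 15.96 and 16.07 in DWT, so only DKO replicate 1 stood high. The list median was 0.03 without DKO replicate 1 and 0.48 without DKO replicate 2. Rps14, a ribosomal protein gene of the human deletion named above, read 17.28 and 16.64 in DKO and 16.70 and 16.75 in DWT (0.24, adjusted p = 0.98). Cdkn1a, the p53 target that encodes the cell cycle inhibitor p21, read 10.98 and 13.54 in DKO and 10.47 and 10.20 in DWT (1.93, adjusted p = 0.75). Only DKO replicate 2 stood high.

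**Figure D4:**
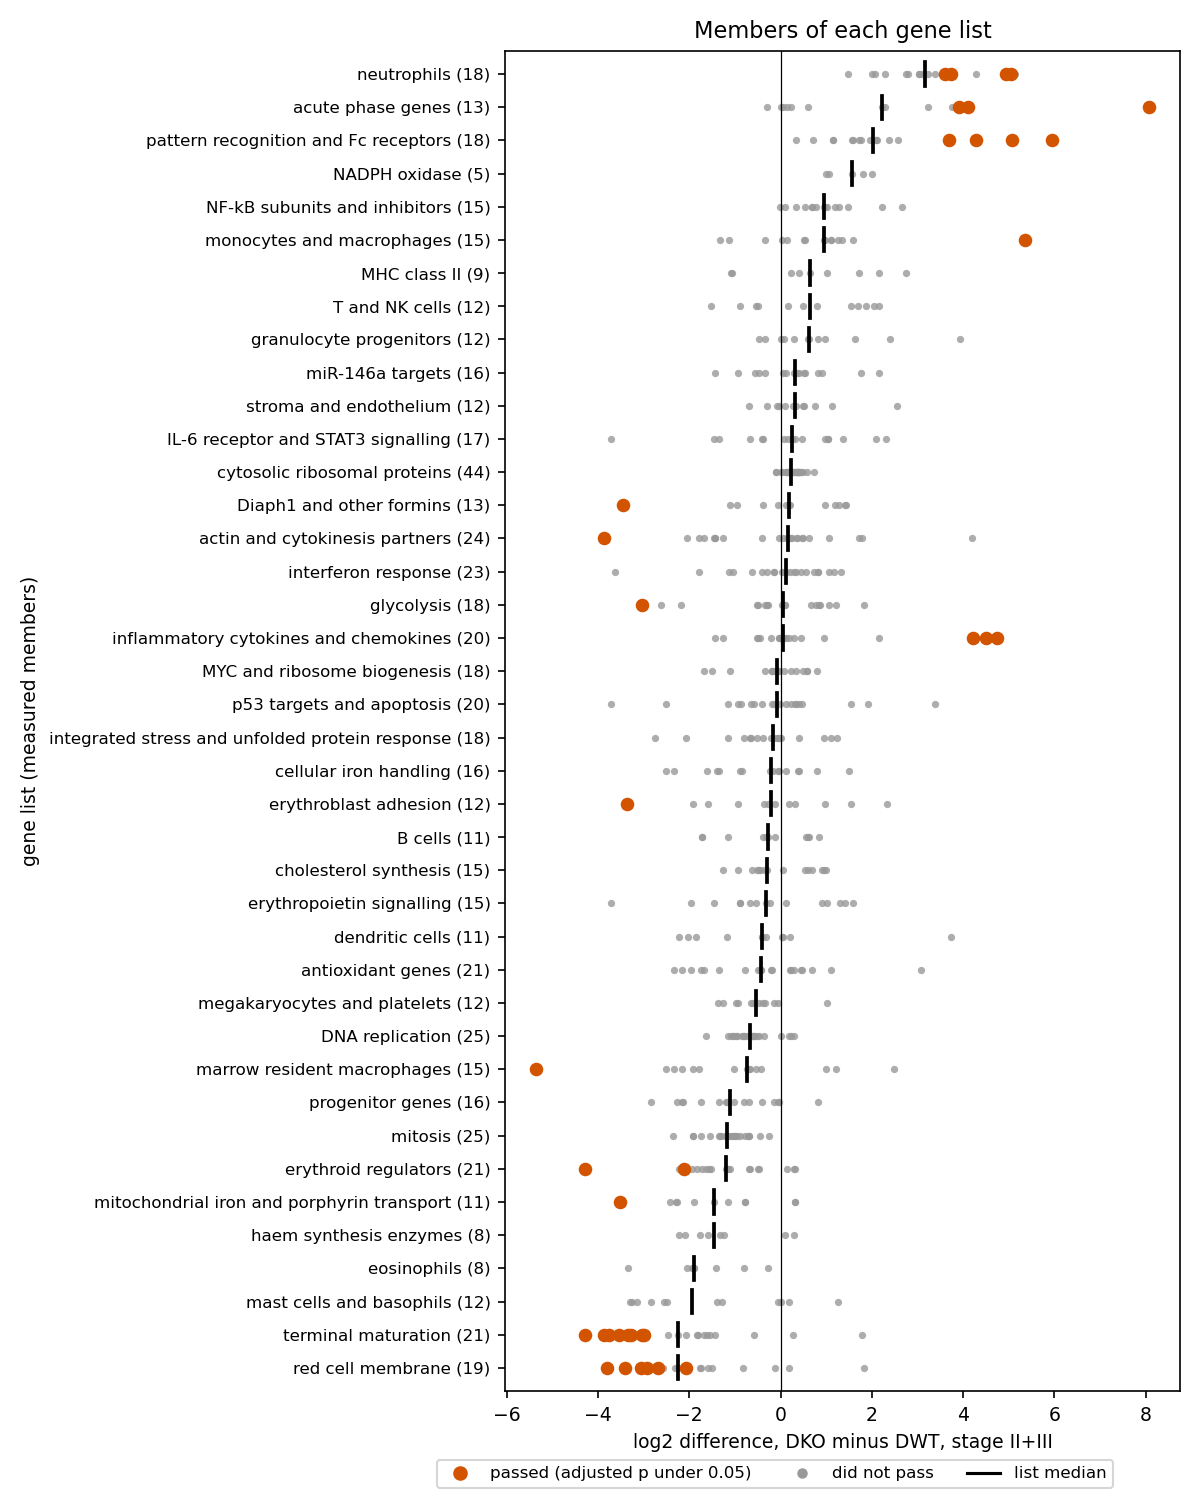
Log2 difference (DKO minus DWT, x axis) of each measured member of the gene lists with at least 4 measured members, 1 list a line with its number of measured members. Orange points passed, grey points did not, and black bars are list medians. Neutrophil genes have the highest median (3.16), and red cell membrane (-2.25) and terminal maturation genes (-2.24) the lowest.

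Of 16 measured genes reported as targets of miR-146a none passed, with a median of 0.33, against 0.01 over all named probe sets. Traf6, the adaptor of interleukin 1 and Toll-like receptors, read 9.42 and 9.15 in DKO and 8.88 and 8.65 in DWT. The gap was without overlap but under the spread that the fit estimated (0.52 ± 0.50, adjusted p = 0.87). Tlr4 (1.76) and Irak2 (0.82) did not pass. Among 15 NF-kB subunits and inhibitors none passed, with a median of 0.95. Both DKO arrays were above both DWT arrays in 10 of them, against 23% of all named probe sets. Nfkbiz, an inducible NF-kB cofactor, read 12.53 and 14.84 in DKO and 11.46 and 11.47 in DWT (2.22, adjusted p = 0.27). The inhibitor gene Nfkbia read 12.29 and 12.98 in DKO and 11.48 and 11.41 in DWT (1.19, adjusted p = 0.33). Of 5 subunit genes of the NADPH oxidase, which makes superoxide in phagocytes, none passed, with a median of 1.56. Of 23 interferon response genes none passed, with a median of 0.11, and Rsad2 was lower in both DKO arrays (-3.63, adjusted p = 0.080).

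Promoter windows of 3 genes are shown because NF-kB, C/EBP and GATA type letters fall in them. The windows come from RefSeq (GRCm38.p6), hold 250 bases before and 50 after the annotated start, and are written in the direction of the gene. Capitals mark the matches of the motif named for that window alone; the Saa3 window also holds a GATA type match and the Cxcl2 window a KLF type match, both left in lower case. The Cxcl2 window lies at chr5:90903649-90903948 on the plus strand and holds 2 matches to an NF-kB type motif (3 guanines, any 2 bases, 3 thymines and 2 cytosines). The Saa3 window lies at chr7:46715627-46715926 on the minus strand and holds 1 match to TTNNGCAA, a C/EBP type motif. The Trim10 window lies at chr17:36869324-36869623 on the plus strand and holds 1 match, on the other strand, to the GATA type motif spelled AGATAA.
Cxcl2: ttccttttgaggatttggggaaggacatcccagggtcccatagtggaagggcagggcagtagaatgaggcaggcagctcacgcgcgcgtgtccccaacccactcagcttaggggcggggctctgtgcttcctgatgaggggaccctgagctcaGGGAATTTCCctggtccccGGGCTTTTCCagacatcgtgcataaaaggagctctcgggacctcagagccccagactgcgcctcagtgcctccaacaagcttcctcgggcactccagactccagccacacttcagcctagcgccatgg
Saa3: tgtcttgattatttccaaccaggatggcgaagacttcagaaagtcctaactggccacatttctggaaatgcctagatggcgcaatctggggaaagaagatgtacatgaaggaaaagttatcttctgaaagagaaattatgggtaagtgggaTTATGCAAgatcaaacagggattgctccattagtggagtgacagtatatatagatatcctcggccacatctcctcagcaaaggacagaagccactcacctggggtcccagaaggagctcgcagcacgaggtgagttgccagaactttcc
Trim10: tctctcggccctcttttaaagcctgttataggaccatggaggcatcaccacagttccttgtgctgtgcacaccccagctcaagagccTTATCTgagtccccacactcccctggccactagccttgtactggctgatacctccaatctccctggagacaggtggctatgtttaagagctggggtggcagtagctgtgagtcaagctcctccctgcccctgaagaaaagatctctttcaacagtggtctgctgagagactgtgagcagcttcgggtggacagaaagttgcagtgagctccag
Both strands were searched, and matches of different motifs may overlap. Shares count genes with at least 1 window, and a gene counted where any of its windows matched. Genes with several windows thus had more chances to match. The NF-kB type motif was found in 3 of 33 genes higher in DKO (9.09%), 0 of 60 genes lower in DKO and 1.82% of 15691 named genes. AGATAA was found in 9.09%, 23.3% (14 of 60) and 11.1%, and TTNNGCAA in 9.09%, 11.7% and 11.6%. CCNCNCCC, a KLF type motif, was found in 48.5%, 75.0% and 60.7%. The shares were not tested, and a match describes letters only.

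Markers of other cell types differed between the DKO replicates themselves. Eosinophil genes averaged 12.19 in DKO replicate 1 and 8.51 in DKO replicate 2, against 11.95 and 12.15 in DWT, and the granule protein gene Prg2 read 17.37 and 12.82 in DKO and 17.18 and 16.82 in DWT. None of 8 passed, and the median of -1.90 became 0.49 without DKO replicate 2. Progenitor genes averaged 9.97 and 8.18 in DKO and 10.11 and 10.20 in DWT, with 0 of 16 passing. Kit, the stem cell factor receptor of early erythroid and mast cells, read 14.46 and 10.37 in DKO and 14.48 and 14.90 in DWT (-2.28 ± 2.19, adjusted p = 0.87). Only DKO replicate 2 was low in Kit. Mast cell and basophil genes averaged 9.02 and 7.86 in DKO and 10.33 and 9.69 in DWT, with 0 of 12 passing and a median of -1.94. B cell genes averaged 9.28 and 7.10 in DKO and 8.36 and 8.58 in DWT, and T and NK cell genes 10.09 and 8.88 in DKO and 8.69 and 9.06 in DWT, with none passing. The part of these cells in the genotype differences was not tested.

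Most of the genes had the same direction at the other stages. Of the 43 genes higher in DKO at stage II+III, 42 had the same sign at stage I, where 6 passed, and 40 at stage IV, where 2 passed. Their median difference was 1.83 at stage I, 4.09 at stage II+III and 1.75 at stage IV. The median at stage II+III is the one by which the genes were chosen and is not comparable with the others. Of the 78 lower genes 76 had the same sign at stage I, where 27 passed, and all 78 at stage IV, where 3 passed. Their medians were -2.18 at stage I, -2.96 at stage II+III and -0.92 at stage IV. Over all named probe sets 11 passed higher and 76 lower at stage I, and 4 higher and 5 lower at stage IV. The share of all named probe sets with the same sign at 2 stages was not computed, so the sign counts have no background beside them. In the interaction test in limma no probe set passed between the stage II+III effect and the stage IV effect (662 at an unadjusted p under 0.05, smallest adjusted p 0.865). Likewise none passed between the stage II+III and stage I effects (942, smallest adjusted p 0.0927). With 2 arrays a group this does not show that the effects were equal.

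Il1f9, Slc4a1 and Mmp9 show how levels changed with stage. Il1f9 read 15.25 and 15.28 in DKO and 12.96 and 13.56 in DWT at stage I, and 10.08 and 9.30 in DKO and 5.62 and 5.33 in DWT at stage IV. Slc4a1 read 13.20 and 12.23 in DKO and 16.47 and 16.42 in DWT at stage I, and 17.51 and 17.38 in DKO and 17.86 and 17.82 in DWT at stage IV. Mmp9 read 13.84 and 11.60 in DKO and 12.78 and 13.15 in DWT at stage I, where the genotypes overlapped. The mean of the neutrophil list was 16.09 and 14.77 in DKO and 14.96 and 15.26 in DWT at stage I, and 11.21 and 10.72 in DKO and 7.41 and 8.99 in DWT at stage IV. The mean of the red cell membrane list was 9.24 and 8.80 in DKO and 12.23 and 12.16 in DWT at stage I. At stage II+III it was 11.44 and 12.16 in DKO and 14.08 and 13.33 in DWT. At stage IV it was 14.56 and 14.58 in DKO and 14.76 and 14.65 in DWT. The stage II+III DKO arrays thus lay at or below the stage I DWT arrays for membrane genes, and the genotypes lay closest at stage IV.

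**Figure D5:**
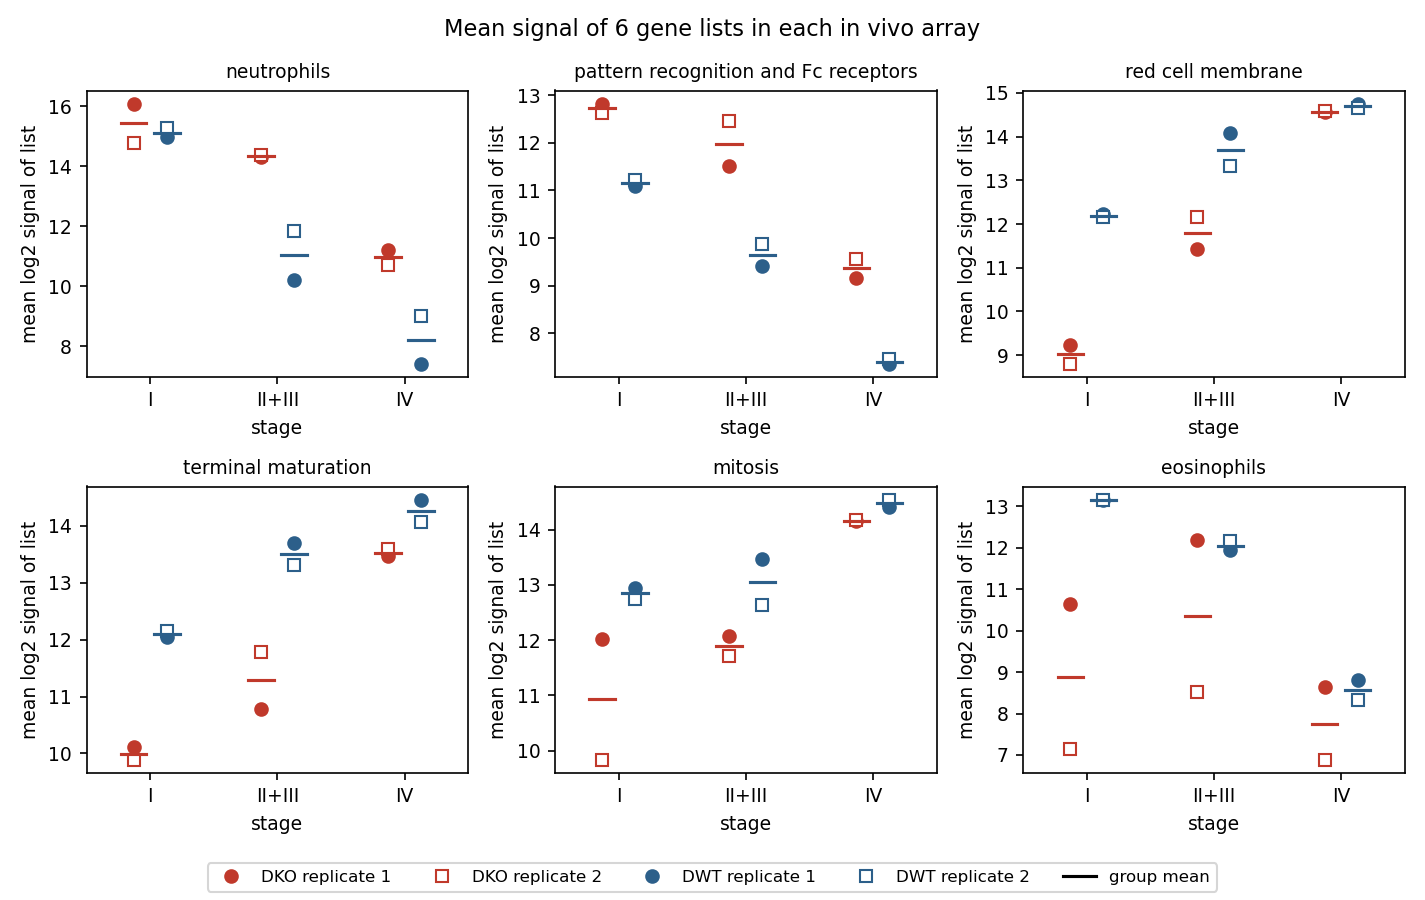
Mean log2 signal of 6 gene lists (y axis) in each of the 12 in vivo arrays by stage (x axis), with DKO in red left of DWT in blue, circles for replicate 1, squares for replicate 2 and short lines for group means. At stage II+III neutrophil genes stand at 14.32 and 14.36 in DKO and 10.20 and 11.85 in DWT, and red cell membrane genes at 11.44 and 12.16 in DKO and 14.08 and 13.33 in DWT.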

How the data were processed

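Total RNA was amplified with a Pico kit and hybridised to mouse Clariom S arrays. The authors deposited log2 signals, for which the submitters' processing notes name RMA (a background correction, quantile normalization and probe summary) and the Affymetrix Expression Console, without versions; whether all 20 arrays were normalized together is not given in the sources used here. The arrays hold 28846 probe sets. Transcripts were the subject of 22206, and a single symbol was attached to 19572, standing for 19505 genes. The log2 values were used as deposited. The 12 in vivo arrays (6 groups of 2) shared 1 linear model in limma 3.58.1 (R 4.3.3), moderated by eBayes with trend (6 residual and 4.52 prior degrees of freedom), and 2-sided p-values were Benjamini-Hochberg adjusted over 19572 probe sets. Signal near background lay under the 95th percentile of 23 background probe sets of its array (7.25 to 7.74). Where both arrays of 1 genotype were near background, "at least" gives the difference against that level. P-values rest on 1 spread per probe set shared by the 12 in vivo arrays of all stages, not on the stage II+III arrays alone. Arrays of different stages were treated as independent, although each genotype had 2 mice. The number of arrays limits the precision.

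The members and gene lists were chosen with earlier results of these data known, and lists got no test. The named genes were key genes (Diaph1, Traf6, Kit and others) whatever their values, the 15 highest and 15 lowest differences that passed without overlap, list members that passed, and, for lists with none passing, up to 4 of their largest differences above background. Not every gene that this naming rule selected is named above. Other members named with values, and other genes where so stated, were picked after their values were seen. Promoter motifs were chosen likewise. The alternatives were other sets of arrays in the fit, leaving out arrays, quantile normalization, centring, no trend, array weights, filters, sex as a term and the DWT mouse as a random block.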

Additional observations from a re-analysis of the deposited data

Results flagged for a closer look

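In some genes every DKO array lay on one side of the DWT arrays at stage II+III and on the other side at another stage. None of them passed the interaction test between stages. Traf6 differed by 0.52 at stage II+III and by -0.78 at stage I (interaction adjusted p = 0.799 in limma). Upp1, near background in both genotypes, differed by 2.03 at stage II+III and by -0.24 at stage IV (interaction adjusted p = 0.865). Hemgn differed by -1.95 at stage II+III and by 0.12 at stage IV (interaction adjusted p = 1). Olfr60, also near background, differed by 1.14 at stage II+III and by -0.12 at stage IV (interaction adjusted p = 1).

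Among the 2634 transcript probe sets without a gene symbol, which the comparison did not use, 12 passed when they were tested together with the named ones, 6 higher and 6 lower in DKO. The largest difference was 6.18 ± 0.54 (adjusted p = 0.0026 in limma).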

How the results depend on the processing

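All 121 genes that passed kept their direction under each alternative that tested them. This was 16 for 116 genes and 15 for the other 5, left out by the background filter. In all 121 the genotypes did not overlap. Other sets of arrays, leaving out arrays, array weights, filters and dropping the trend could therefore not reverse a direction. Fcna, Il1f9 and Slfn4 passed in each alternative that kept 2 arrays in both stage II+III groups. The counts higher and lower in DKO (43 and 78) became 21 and 16 with only the 4 stage II+III arrays, 115 and 239 with stages II+III and IV, 213 and 334 with all 20 arrays, 208 and 372 without DKO-I replicate 2, 156 and 288 with array weights, 62 and 119 after the background filter and 10 and 5 with sex as a term. The higher share was 35.5% and became 56.8% with the 4 arrays alone and 66.7% with the sex term. Leaving out 1 array of stage II+III gave 2 to 104 higher and 3 to 42 lower. After quantile normalization the counts were 43 and 91, after centring 39 and 67, and with the DWT mouse as a random block (correlation 0.066) 45 and 87.

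The number of probe sets that passed the interaction test between stages II+III and IV was 0. It was 5 with all 20 arrays in limma (Cxcl2, Ceacam10 and Slfn4 higher, Fn3krp and Dmtn lower). Between stages II+III and I it was 0, and 4 with all 20 arrays (Il1f9, Gstm5, Alad and Mfsd2b), 1 without DKO-I replicate 2 (Car1), 1 with no intensity trend (Il1f9), and 0 to 1 without 1 array (Sparc). These genes were named after their values were seen, and the cause of the changes in counts was not tested.

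Some differences that had not passed changed direction. Leaving out DKO replicate 2 and DKO replicate 1 in turn gave 0.37 and -4.18 for Prg2, -0.63 and 3.07 for C1qa, -0.72 and 2.73 for C1qc, -0.061 and 0.75 for Tlr9, and 0.56 and -0.082 for Rps14. The log2 difference of Uty was 0.37 without DWT replicate 1, the male, -6.08 without DWT replicate 2 and 0.32 with sex as a term. No paired analysis was possible because the labels give no replicate numbers that tie DKO to DWT mice.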
